A study of Sus scrofa with 6 samples.

Results

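Carbonic anhydrase II (CA2) and aquaporin 3 (AQP3) were followed in soleus and longissimus dorsi of pigs. They were chosen by name from the authors' deposited comparison of these muscles: every probe set whose title names carbonic anhydrase II or whose symbol is AQP3. A probe set is a group of short probes on an Affymetrix array that together measure 1 transcript. The rule found 2 probe sets, 1 for each gene, among the 550 of that table. The array holds 24123 probe sets, and those outside the deposited comparison carry no gene name here. Further probe sets of either gene could therefore not be sought. The AQP3 probe set carries its symbol in the table. The CA2 probe set carries no symbol, and its title describes a transcribed locus moderately similar to the human carbonic anhydrase II protein, so that its identity rests on that title alone.

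Skeletal muscle RNA came from 3 Meishan gilts of a single litter, slaughtered at 150 days of age, and was hybridised to 6 Affymetrix porcine GeneChips. Soleus gave 3 arrays and longissimus dorsi 3. Soleus, named SE in the protocol and sampled in its deep part, is described there as the oxidative muscle, and longissimus dorsi, a back muscle sampled at the last rib, as fast and glycolytic. All gilts received the same standardized feeding with no treatment named, and the labels number the arrays of each muscle as biological replicates 1 to 3.

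Carbonic anhydrases interconvert carbon dioxide and water with bicarbonate and a proton. CA2 is the widely expressed, fast cytosolic form, abundant in red blood cells, kidney and osteoclasts, whereas CA3 is the abundant cytosolic form of slow skeletal muscle fibres. Aquaporins are membrane channels for water. AQP3 belongs to the aquaglyceroporins, which also pass glycerol, and is best known from the epidermis and the basolateral membrane of kidney collecting duct cells.

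Values are on a log2 scale with the median of the 6 arrays set to 0 for every probe set, so each shows how the arrays of 1 probe set differ and not how abundant its transcript was. Where the muscles do not overlap, this centring places the third and the fourth value at equal distances from 0. With 3 arrays a muscle, the precision is limited by their number. The labels call the replicates biological, but do not say which gilt gave which array. Every gilt gave both muscles, and the SEs below take the arrays as independent. Both genes are in the table because they differed between these muscles in these samples (unadjusted p-value under 0.05 and at least 1.5-fold), so their muscle difference is given as a description. Where calls of the fit of all probe sets are counted for them, the counts only place the 2 genes among the others and test nothing new.

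CA2 had lower values in soleus on all arrays. Its values were -0.50, -2.12 and -1.01 in soleus replicates 1, 2 and 3, against 0.50, 0.63 and 1.46 in longissimus dorsi replicates 1, 2 and 3. Soleus replicate 2 was the lowest array and longissimus dorsi replicate 3 the highest, and the muscles were 1.01 apart at their closest. The mean was -1.21 ± 0.82 in soleus and 0.86 ± 0.52 in longissimus dorsi (SD, n = 3 arrays each). The log2 difference, soleus minus longissimus dorsi, was -2.07 (SE 0.42), which is a 4.21-fold higher mean in longissimus dorsi.

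AQP3 had lower values in soleus as well. Its values were -0.89, -0.94 and -0.25 in soleus replicates 1, 2 and 3, against 0.25, 1.39 and 1.91 in longissimus dorsi replicates 1, 2 and 3. Here soleus replicate 3 and longissimus dorsi replicate 1 came closest, 0.49 apart, and the muscles did not overlap. The mean was -0.69 ± 0.39 in soleus and 1.18 ± 0.85 in longissimus dorsi (SD, n = 3 arrays each). The log2 difference was -1.87 (SE 0.41), a 3.66-fold higher mean in longissimus dorsi.

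**Figure D1:**
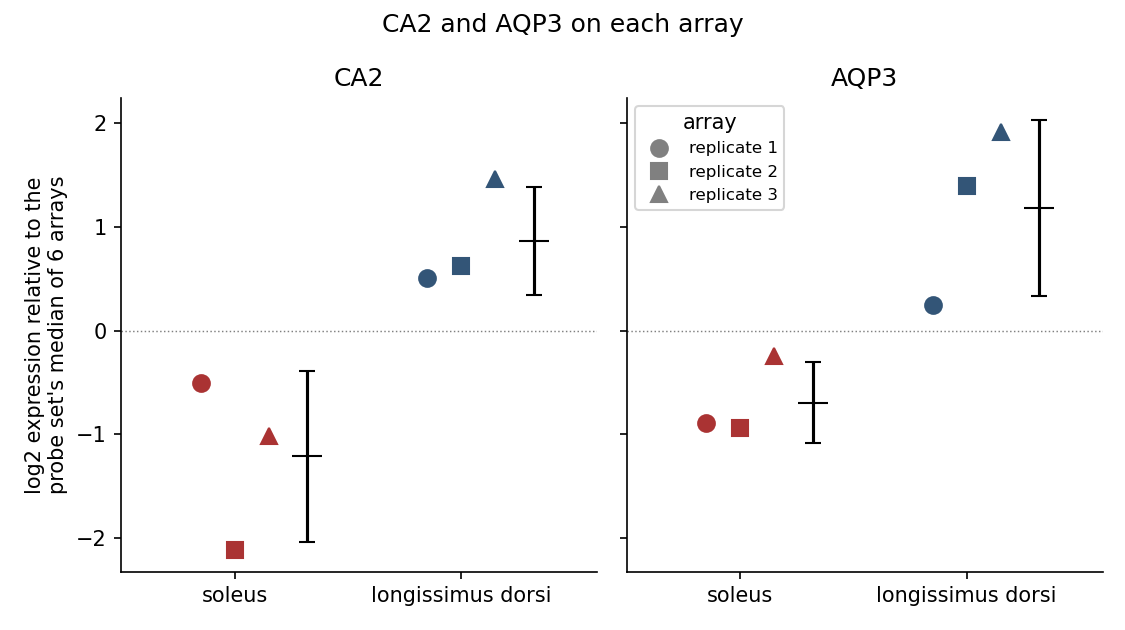
Log2 expression of CA2 (left) and AQP3 (right) relative to each probe set's median over 6 arrays, for soleus and longissimus dorsi; symbols mark replicate numbers, and the horizontal bar with whiskers is the mean ± SD of 3 arrays. All soleus values lie below all longissimus dorsi values, with a gap of 1.01 for CA2 and 0.49 for AQP3.

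The arrays of a muscle were far apart for both genes, and the wider muscle was not the same. CA2 spread over 1.61 on the log2 scale in soleus, a 3.06-fold range, and over 0.95 in longissimus dorsi, a 1.94-fold range. AQP3 spread over 0.69 in soleus, a 1.62-fold range, and over 1.66 in longissimus dorsi, a 3.17-fold range. The SD within muscles was 0.69 for CA2 and 0.66 for AQP3, against a median of 0.24 over the 23935 probe sets left after control probe sets were removed. A larger SD was seen in 2.69% of these probe sets for CA2 and in 3.19% for AQP3.

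CA2 and AQP3 stood next to each other in the order of muscle differences. Among the 23935 probe sets, CA2 had the difference of rank 6 and AQP3 that of rank 7 on the side lower in soleus. The probe sets before them were those of OCA2, arginase type II with 2 probe sets, an unnamed transcript and ribonuclease H2 subunit B, at -3.66 to -2.16. A difference of -1 or lower was found in 147 probe sets, and the median difference of all was -0.03. In either direction CA2 ranked 11 and AQP3 16 by size.

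**Figure D2:**
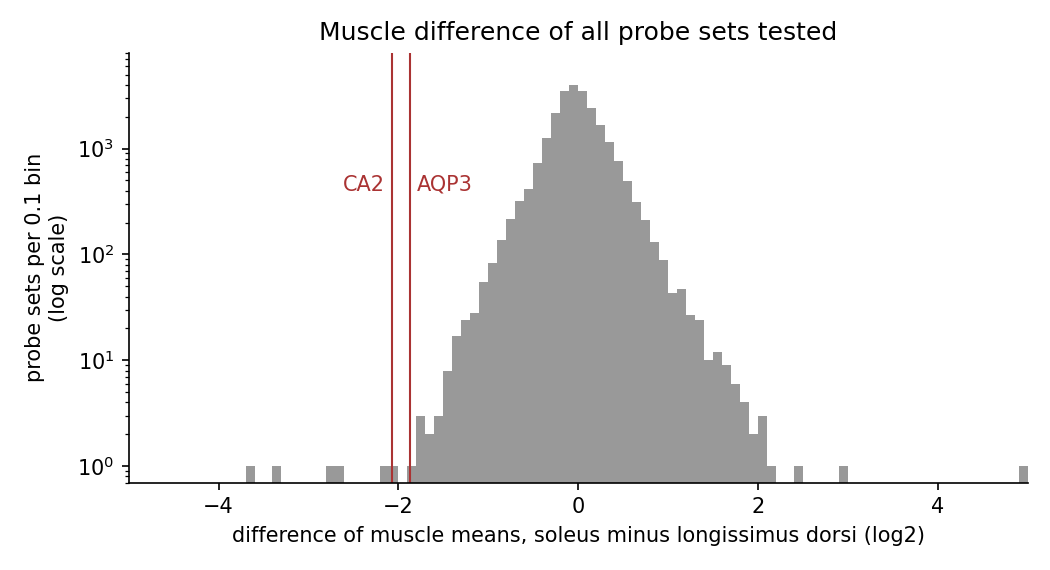
Number of probe sets (log scale) in each 0.1 interval of the difference of muscle means, soleus minus longissimus dorsi (log2), over 23935 probe sets. The vertical lines mark CA2 at -2.07 and AQP3 at -1.87, both in the sparse tail below the bulk of the probe sets.

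Neither gene passed the adjusted threshold in a fit of all probe sets. With limma and Benjamini-Hochberg adjustment, 0 of the 2 genes had an adjusted p under 0.05, and 2 of 23935 probe sets did (0.00836%). At an unadjusted p under 0.05 in limma both genes passed, with 8.46% of all probe sets. All soleus values lay below all longissimus dorsi values in 8.11% of all probe sets, and 2.20% were lower in soleus at an unadjusted p under 0.05 and at least 1.5-fold. Since the genes were chosen on this contrast, these shares stand beside the counts without bearing on them. Both genes passed the adjusted threshold when limma weighted the arrays by their agreement with the fit. There 658 of the 23935 probe sets passed. The weights ran from 0.38 for soleus replicate 3 to 9.34 for longissimus dorsi replicate 2. Longissimus dorsi replicates 1 and 3 had weights of 0.79 and 0.49, so the weighted mean of that muscle rested mostly on replicate 2.

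In the authors' deposited table the 2 genes had the folds of rank 10 for CA2 and rank 12 for AQP3 among its 550 probe sets, and ranks 6 and 7 among the 227 that it lists as higher in longissimus dorsi. At the edge of these limits, a zyxin probe set was just inside at 1.50124-fold and an unnamed one just outside at 1.49917-fold. On the p-value, the edge ran between unnamed probe sets at 0.0499597 and 0.050028.

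The size of the muscle difference varied with the replicate number, in the same order for both genes. Soleus minus longissimus dorsi was -1.01, -2.74 and -2.47 for CA2 in replicates 1, 2 and 3, that is 2.01-fold, 6.69-fold and 5.54-fold lower in soleus. For AQP3 it was -1.14, -2.33 and -2.16, that is 2.20-fold, 5.01-fold and 4.45-fold lower in soleus. In both genes replicate 1 had the smallest difference and replicate 2 the largest. The labels do not say that a number marks a pig, so these are differences between same-numbered arrays. Another match of the arrays would give other differences, so the shared order rests on the numbering.

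The distance between the centred values of the 2 genes had the same order over replicate numbers in both muscles, although a shared number has no stated link between arrays. CA2 minus AQP3 was 0.39, -1.18 and -0.77 in soleus replicates 1, 2 and 3, against 0.26, -0.76 and -0.45 in longissimus dorsi replicates 1, 2 and 3. Centring sets the zero point of each gene, so these values can be compared between arrays but not with 0. Replicate 1 was the highest and replicate 2 the lowest in each muscle. The mean was -0.52 ± 0.81 in soleus and -0.32 ± 0.52 in longissimus dorsi (SD, n = 3 arrays each). The muscles differed by -0.20 in this distance, less than the SD within either muscle. Which gene had the larger drop also turned with the setting. By muscle medians the difference was -1.64 for CA2 and -2.28 for AQP3, without longissimus dorsi replicate 1 it was -2.25 and -2.34, and without soleus replicate 2 it was -1.62 and -1.75.

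The pattern of each gene over the 6 arrays was compared with that of every other probe set through the root mean square difference of their centred log2 values, which is 0 for identical patterns. Between CA2 and AQP3 it was 0.71. By this measure AQP3 was the 24th nearest of the 23934 other probe sets to CA2, and CA2 the 55th nearest to AQP3. The median over all others was 1.21 from CA2 and 1.13 from AQP3. Probe sets with a large drop in soleus come near these genes by construction, so the ranks describe likeness and no more.

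The named genes closest to CA2 were testis expressed 9 (0.52), EF-hand calcium binding domain 7 (0.53), the ubiquitin-conjugating enzyme E2E 3 (0.56), the ADP-ribosyltransferase ART3 (0.57) and microsomal glutathione S-transferase 2 (0.64), over 6 arrays. Their muscle differences were -1.54 to -1.27, all smaller in size than that of CA2. None of these 5 came near the value of CA2 on soleus replicate 2, where they lay between -1.20 and -0.83 against -2.12 for CA2.

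The named genes closest to AQP3 were myosin binding protein H (MYBPH, 0.44), a thick filament protein, an elastin probe set (0.51), ART3 (0.54), neuritin (0.56) and the ubiquitin-conjugating enzyme E2E 3 (0.59). MYBPH lay close to AQP3 on longissimus dorsi replicate 1 (0.24 against 0.25) and replicate 2 (1.36 against 1.39). On longissimus dorsi replicate 3 they lay apart, at 1.18 for MYBPH and 1.91 for AQP3. They also lay apart on soleus replicate 2, at -0.24 for MYBPH and -0.94 for AQP3. Of the 5 elastin probe sets in the table this was the 1 with a lower mean in soleus. ART3 and the ubiquitin-conjugating enzyme stood among the closest 5 of both genes, each through different probe sets.

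**Figure D3:**
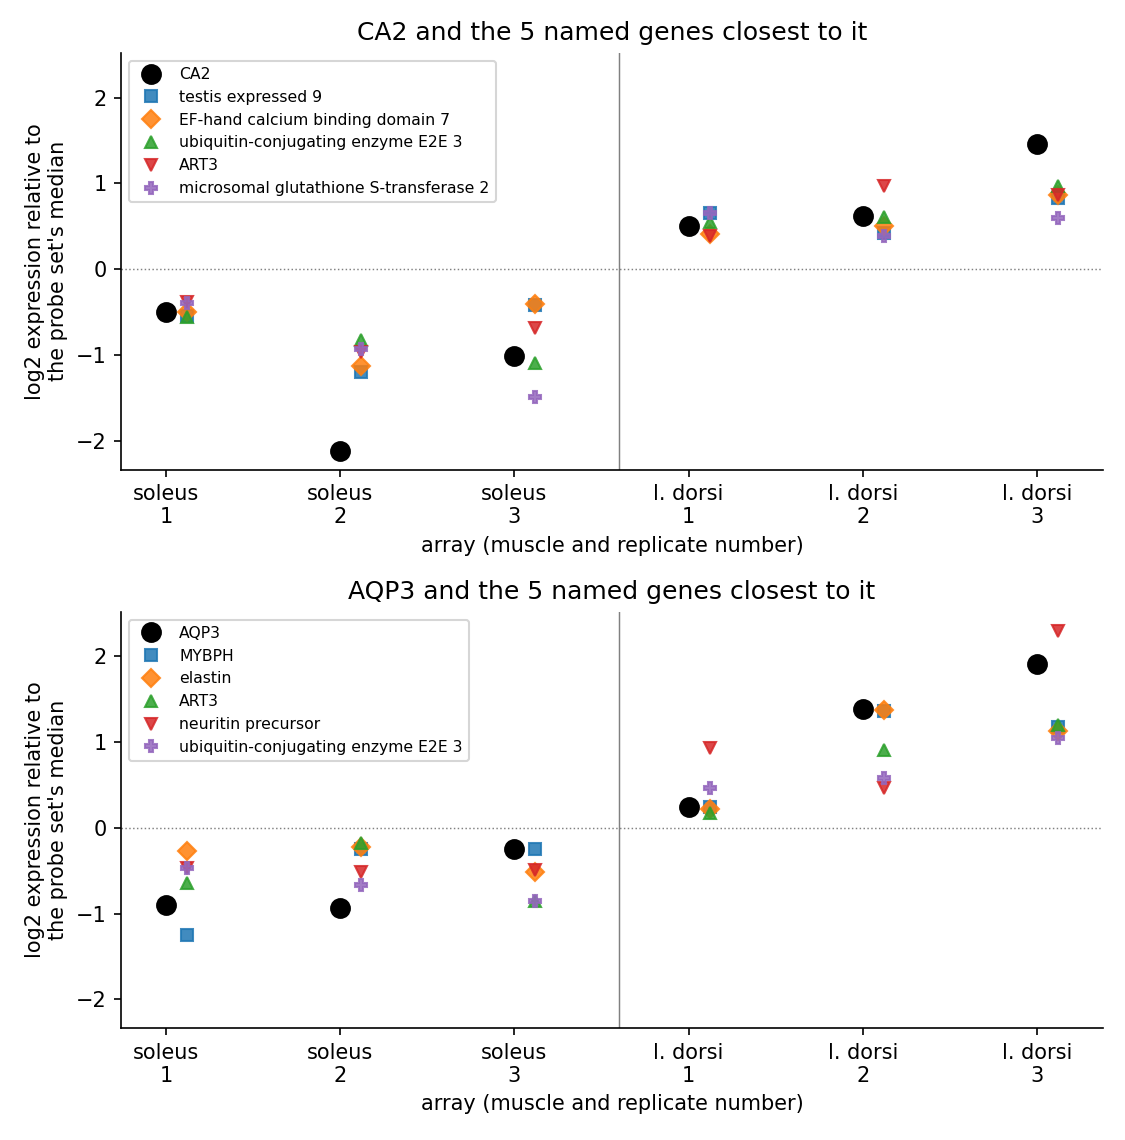
Centred log2 values on each of the 6 arrays for CA2 (top) and AQP3 (bottom), with the 5 named genes closest to each by root mean square difference. The soleus value of CA2 in replicate 2 lies below those of its 5 closest genes, and AQP3 and MYBPH nearly coincide on longissimus dorsi replicates 1 and 2.

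Other genes of the same pathways could be followed only as far as the deposited table names them, since the array's remaining probe sets carry no gene name in the tables used here. Of 15 carbonic anhydrase genes, CA2 alone was named, and of 13 aquaporin genes AQP3 alone. The muscle form CA3 and the further aquaglyceroporin AQP7, which lies next to AQP3 in the RefSeq annotation of the pig genome, were not analysed here. No gene was named of the 16 of bicarbonate, proton and lactate transport or of the 18 of glycerol and triglyceride handling.

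Of 13 genes of cell volume and ion transport, SLC12A4, a potassium-chloride cotransporter that lets cells shed salt and water, was named. Its values were 0.24, 0.91 and 1.22 in soleus replicates 1, 2 and 3, against -0.24, -0.52 and -0.69 in longissimus dorsi replicates 1, 2 and 3. It ran opposite to AQP3, with a log2 difference of 1.27, and did not pass the adjusted threshold.

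Of 13 genes of haem and oxygen supply, 2 were named and both had higher means in soleus, opposite to CA2. Haem oxygenase 1 (HMOX1), which breaks down haem, had a mean of 0.95 ± 0.67 in soleus and -0.75 ± 0.52 in longissimus dorsi. The angiogenic factor VEGFA had a mean of 0.53 ± 0.42 in soleus and -0.21 ± 0.18 in longissimus dorsi (SD, n = 3 arrays each). Their median difference was 1.22, against -0.03 over all probe sets, and 0 of the 2 passed an adjusted p under 0.05 in limma (0.00836% of all probe sets did). Both passed an unadjusted p under 0.05 (8.46% of all did), which was largely fixed, since the table that names them required it. With array weights the log2 difference of HMOX1 was 2.35, against 1.70 with equal weights.

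Markers of the muscles and of other cells were named as sparsely. A name came only with a place in the deposited comparison, which required an unadjusted p under 0.05 and at least 1.5-fold. That each named marker differed between the muscles was therefore fixed by this choice. Of all probe sets, 8.46% had an unadjusted p under 0.05 in limma. Of 9 slow fibre genes, 2 were named, MYBPC1 and MYOZ2, and their mean lay between 0.33 and 0.63 on the soleus arrays and between -0.87 and -0.35 on those of longissimus dorsi. Of 10 fast fibre genes, MYH4, the fast IIb myosin heavy chain, was named and had a mean of -0.35 in soleus and 0.25 in longissimus dorsi. Red blood cells hold much CA2 and epithelia hold AQP3. Named were 0 of 7 erythrocyte markers, 0 of 6 epithelial, 0 of 5 adipocyte and 0 of 4 endothelial markers. The muscle difference of an unnamed marker is unknown here, so its absence bears on nothing. Of 7 fibroblast and tendon markers, 4 were named (COL1A1, COMP, FMOD and THBS4), with a mean of 0.42 to 0.67 on the soleus arrays and of -0.67 to -0.26 on those of longissimus dorsi. The 1 named of 6 leukocyte markers, LAPTM5, had a log2 difference of 0.65, and the 1 of 5 nerve markers, MBP, of -0.91. Their part in the difference of CA2 and AQP3 was not tested. In bulk muscle, fewer cells of a type and less RNA per cell cannot be told apart.

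Soleus replicate 3 stood apart from the other arrays, with values 0.50 wide (SD over probe sets), where the other arrays had 0.24 to 0.31. Without it the difference was -2.17 for CA2 and -2.10 for AQP3. The smallest difference of CA2, -1.62, was found without soleus replicate 2. That of AQP3, -1.51, was found without longissimus dorsi replicate 3, and its largest, -2.34, without longissimus dorsi replicate 1.

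**Figure D4:**
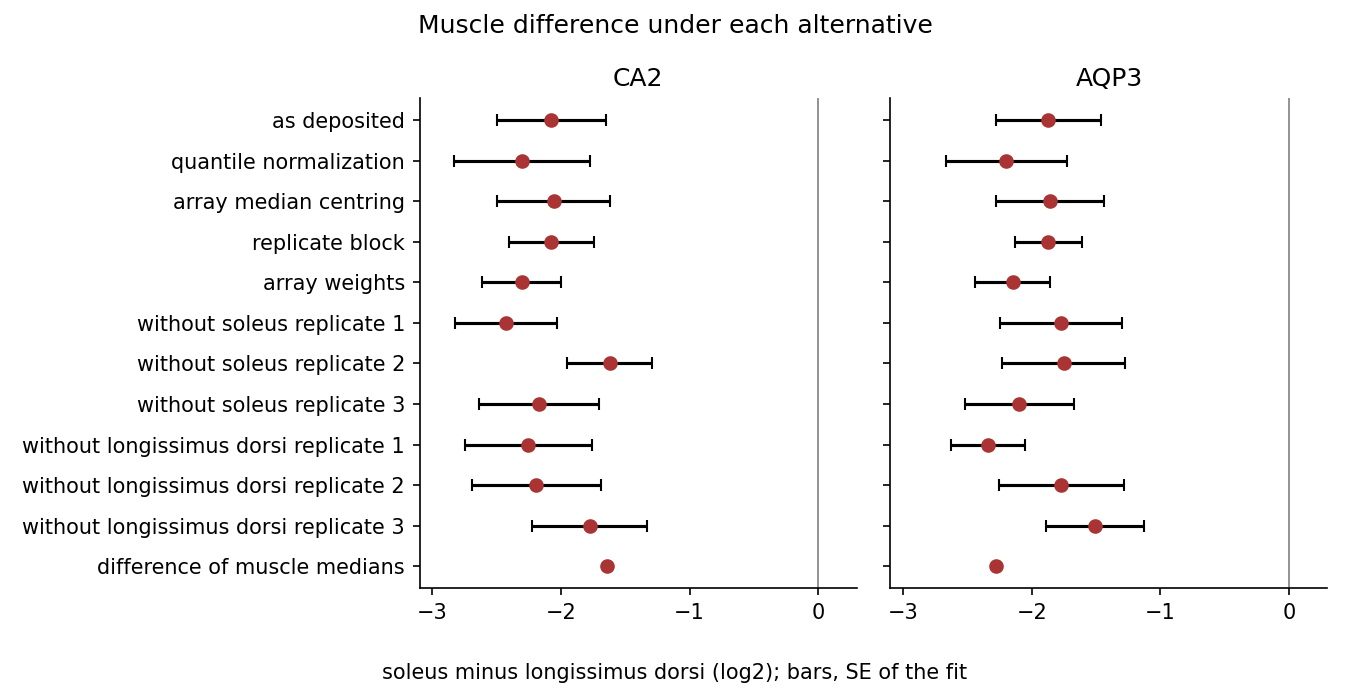
Log2 difference, soleus minus longissimus dorsi, of CA2 and AQP3 with the values as deposited and under each alternative; points are the difference, bars the SE of the fit (none for the medians). CA2 runs from -2.43 to -1.62 and AQP3 from -2.34 to -1.51, and with 1 array left out of non-overlapping groups the sign could not turn.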

How the data were processed

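Per the labels' protocols, biotin-labelled cRNA was made from total RNA and hybridised to the arrays. MAS5 2.3.1 is named, with no role, in the submitters' processing notes. How arrays were scaled and probes summarised is not given in the sources. The deposited log2 values are centred on each probe set's median over 6 arrays, as their medians of 0 (within 5e-07) show, so signal over background is unknown. The authors' table gives, per the file headers, an unpaired-test p-value under 0.05 and a linear ratio (fold) of at least 1.5.

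After 188 control probe sets were left out, soleus minus longissimus dorsi was fitted with limma 3.58.1 (R 4.3.3), unpaired, over 23935 probe sets, with Benjamini-Hochberg adjustment at 0.05. The fit was tested on simulated data. SEs are the fit's. Alternatives were quantile normalization, array median centring, a replicate block, array weights, a variance trend, muscle medians, the deposited comparison's unpaired test and leaving out each array. The filter on signal could not be formed. Named genes were all members of the lists that the table names, by symbol or title, and the 5 closest named patterns. Genes and lists were chosen with earlier results of these data known. Python 3.11.15 was used for summaries.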

Additional observations from a re-analysis of the deposited data

How the results depend on the processing

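The differences of CA2 and AQP3 moved by less than the SD within muscles under 11 of 11 alternatives each. They ran from -2.43 to -1.62 for CA2 and from -2.34 to -1.51 for AQP3. For the replicate block and for each array left out this was fixed. A block leaves the difference of balanced groups unchanged, and dropping 1 of 3 arrays cannot move it past that SD. Quantile normalization, array weights and muscle medians are not bound in this way. They gave -2.30, -2.31 and -1.64 for CA2 and -2.20, -2.15 and -2.28 for AQP3. The likeness of the 2 genes ran from 0.60 to 0.97. With the replicate number as a block their differences were the same, with SEs of 0.33 for CA2 and 0.26 for AQP3, and 0 of 2 passed the adjusted threshold. The numbers were not taken to pair the arrays, because the labels leave the gilt behind each array unstated. Across probe sets, the deviations of arrays with the same number correlated at -0.14, 0.11 and 0.25. The arrays numbered 3 were closest to each other (0.25). Soleus replicate 1 was closest to longissimus dorsi replicate 2 (0.18) and soleus replicate 2 to longissimus dorsi replicate 1 (0.34). The deviations of 3 arrays sum to 0 in each muscle, so some match always comes out closest. These correlations cannot show which arrays share a gilt. The 2 adjusted calls over all probe sets became 7 with the replicate block, 6 with quantile normalization, 10 with a variance trend, 658 with array weights, 1219 at the limits of the deposited comparison and 1 to 4 with each array left out. The count of 1219 became 2167 with array weights, 549 with the deposited comparison's unpaired test, chosen after seeing the data, and 797 to 2501 with each array left out (797 without longissimus dorsi replicate 2, 2501 without soleus replicate 1). The causes were not tested. Array weights were the 1 setting in which CA2 and AQP3 passed. Of the differences of SLC12A4, HMOX1 and VEGFA, that of HMOX1 with array weights (2.35) was the 1 to move by more than the SD within muscles. Each named pathway gene has 1 probe set in the deposited comparison, and others on the array could not be sought by name. Taking probe sets singly moved the median difference of the slow fibre markers to 1.14, against 1.01 over genes, and that of the fibroblast and tendon markers to 0.91, against 0.95.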

Other observations

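Other transport proteins carry titles in the deposited table, grouped here after their values were seen, so no test is given. Titles of 3 further solute carriers had higher means in soleus, like SLC12A4 and unlike CA2 and AQP3. These were SLC38A1, a glutamine transporter (log2 difference 0.60), SLC47A1, an exporter of organic cations (0.83), and SLC15A3, a peptide and histidine transporter (0.72). A probe set titled potassium channel isoform 1 had a mean of -0.31 ± 0.25 in soleus and 0.35 ± 0.27 in longissimus dorsi (SD, n = 3 arrays each). The cation transport regulator-like protein ChaC 2 had lower means in soleus on both of its listed probe sets, at -1.26 and -0.93. The vesicle amine transport protein 1 homolog had a higher mean in soleus (log2 difference 0.72). In limma 0 of these transport proteins passed the adjusted threshold (0.00836% of all probe sets did). Each is listed at an unadjusted p under 0.05 and at least 1.5-fold in the authors' deposited table, and probe sets outside it carry no title here.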
